A study of Mus musculus with 6 samples.

Results

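The genes described here write, read and erase the marks carried by chromatin: DNA methylation, histone methylation and histone acetylation, together with the remodellers and histone chaperones that move and deposit nucleosomes. A list of 55 such genes was taken by name, with earlier results of these data known. Where several probe sets name a gene and no other gene, the brightest on average stood for it. Of the 55, 53 had such a probe set and 50 were bright enough to be tested, out of 18193 genes named on the array and 10916 tested. Suv39h1 and Chaf1a had no probe set of this kind, and Tet3, Cbx3 and Hdac8 lay among the lowest 40% of genes and were not tested. The members were compared between retinas of newborn wildtype mice and of newborn Cyclin D1 -/- mice, 3 pools of retinas per genotype with 1 Affymetrix array per pool. The labels give no strain, no number of animals per pool and no other allele or treatment, and the knockout is not described as limited to any tissue. Since it is also not said whether pools shared litters, the p-values reflect variation among these pools only, which may be technical. The purpose of the comparison was to learn in which direction transcripts of genes that cyclin D1 occupies move when the protein is missing. The binding data were not used here.

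Cyclin D1 drives progenitor cells from G1 into S phase and is the main D-type cyclin of the retina. When DNA is copied, each daughter strand needs its methyl groups restored, a task of Dnmt1 guided by Uhrf1, and new histones delivered by chaperones such as Asf1b and the CAF-1 complex. Polycomb complexes keep developmental genes silent, the PRC2 complex by methylating lysine on histone H3 and PRC1 by binding that mark and compacting chromatin. In the newborn retina, dividing progenitors still lie beside postmitotic ganglion, amacrine, horizontal, cone and early rod cells, and members of these families that serve replicating chromatin are known to be more abundant in dividing cells.

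Levels are given as log2 of the quantile-normalised signal plus 16, as the mean ± SD over 3 pools, and differences are knockout minus wildtype on that scale. A gene is called at a limma adjusted p below 0.1, the false discovery rate in the labels. The targeted gene, Ccnd1, matched the labels in all 6 pools, at 12.45 ± 0.10 in wildtype and 8.86 ± 0.06 in knockout. The labelled tissue was checked on 11 markers of retinal progenitors. Of these, 10 had a probe set naming no other gene, and all 10 were bright enough to be tested. Pax6 stood at 10.05 ± 0.26 and Rax at 9.02 ± 0.26 in wildtype pools. Array medians ran from 40.6 to 50.5 deposited units. Wildtype pool 3 stood apart: for 50.8% of tested genes it differed by more than 0.3 from the mean of wildtype pools 1 and 2, against 20.9% for knockout pool 3. Arrays were ranked on spiked-in BioB and BioC controls and cut at the middle rank. This gave a brighter set (wildtype pool 3 with knockout pools 1 and 2) and a dimmer set (the other 3). The cut lay between control means of 854.1 and 960.5, in a range of 771 to 1201.5, so the sets need not be batches. Differences within the brighter and the dimmer set, in that order, are given beside every called member and some of the other members, and each rests on 1 array of one genotype.

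In knockout retinas the genes that copy DNA methylation (Uhrf1 and Dnmt1), a histone chaperone (Asf1b), an HMG box gene (Hmgb2), Polycomb genes (Ezh2, Suz12 and Cbx2) and an HP1 gene (Cbx1) fell, by 1.33-fold to 2.31-fold. No deacetylase, demethylase, acetyltransferase or remodeller passed. Of 50 tested members, 8 fell (16%) and 0 rose, where 2.63% of all tested genes were called lower, 2.03% higher and 4.66% either way. At an unadjusted limma p under 0.05, 13 members were lower and 2 higher. The share of all tested genes at that looser threshold was not counted, so these 2 counts have no background beside them. The median difference of the 50 was -0.13, against 0.02 for all tested genes. Below 0 were 36 of the 50 members and 4971 of all 10916 tested genes. In 16 members every knockout pool lay below every wildtype pool and in 3 every one lay above, where 9.48% and 10.5% of all tested genes did so.

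Markers of dividing cells moved with these members, as measured on the same arrays. Of 27 tested genes of cycling cells, 25 fell and 0 rose, with a median of -0.89, among them Ccna2 (-1.36), Top2a (-1.17) and Pcna (-0.81). Their summed signal was 0.517% to 0.545% of the signal of all genes in the wildtype pools and 0.263% to 0.294% in the knockout pools, without overlap. Among markers of other retinal cells, 5 of 10 for ganglion cells, 4 of 9 for photoreceptors and 3 of 8 for Muller glia rose with 0 falling. Of 9 for amacrine and horizontal cells, 4 fell and 0 rose, and of 10 for progenitors 3 fell and 1 rose. In whole retina, fewer cells of a type and less RNA per cell cannot be told apart, and the part of these cell types in the members' differences was not tested.

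How many members passed depended on single arrays. Without wildtype pool 3, 15 members were lower and 1 higher, where 9.66% and 7.90% of all tested genes were called. Without any other single pool between 3 and 5 members were lower and 0 higher. In these settings 0.907% to 1.88% of all tested genes were called lower and 0.623% to 1.17% higher. Pools 1 and 2 of each genotype were the most alike pairs (SD of the log2 difference between arrays 0.22 and 0.21, against 0.28 to 0.52 for other pairs). With each of these pairs averaged into 1 sample, only Uhrf1 and Hmgb2 of the members passed, where 0.238% of all tested genes were called lower and 0.156% higher. In the values as deposited 5 members and 1.61% of all tested genes were lower. The median difference of members was then 0.006 and that of all genes 0.13. Members were chosen with earlier results of these data known, so the order of these medians is no separate evidence. Of all calls in the values as deposited, 29.8% were falls, against 56.4% in the values used here.

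**Figure D1:**
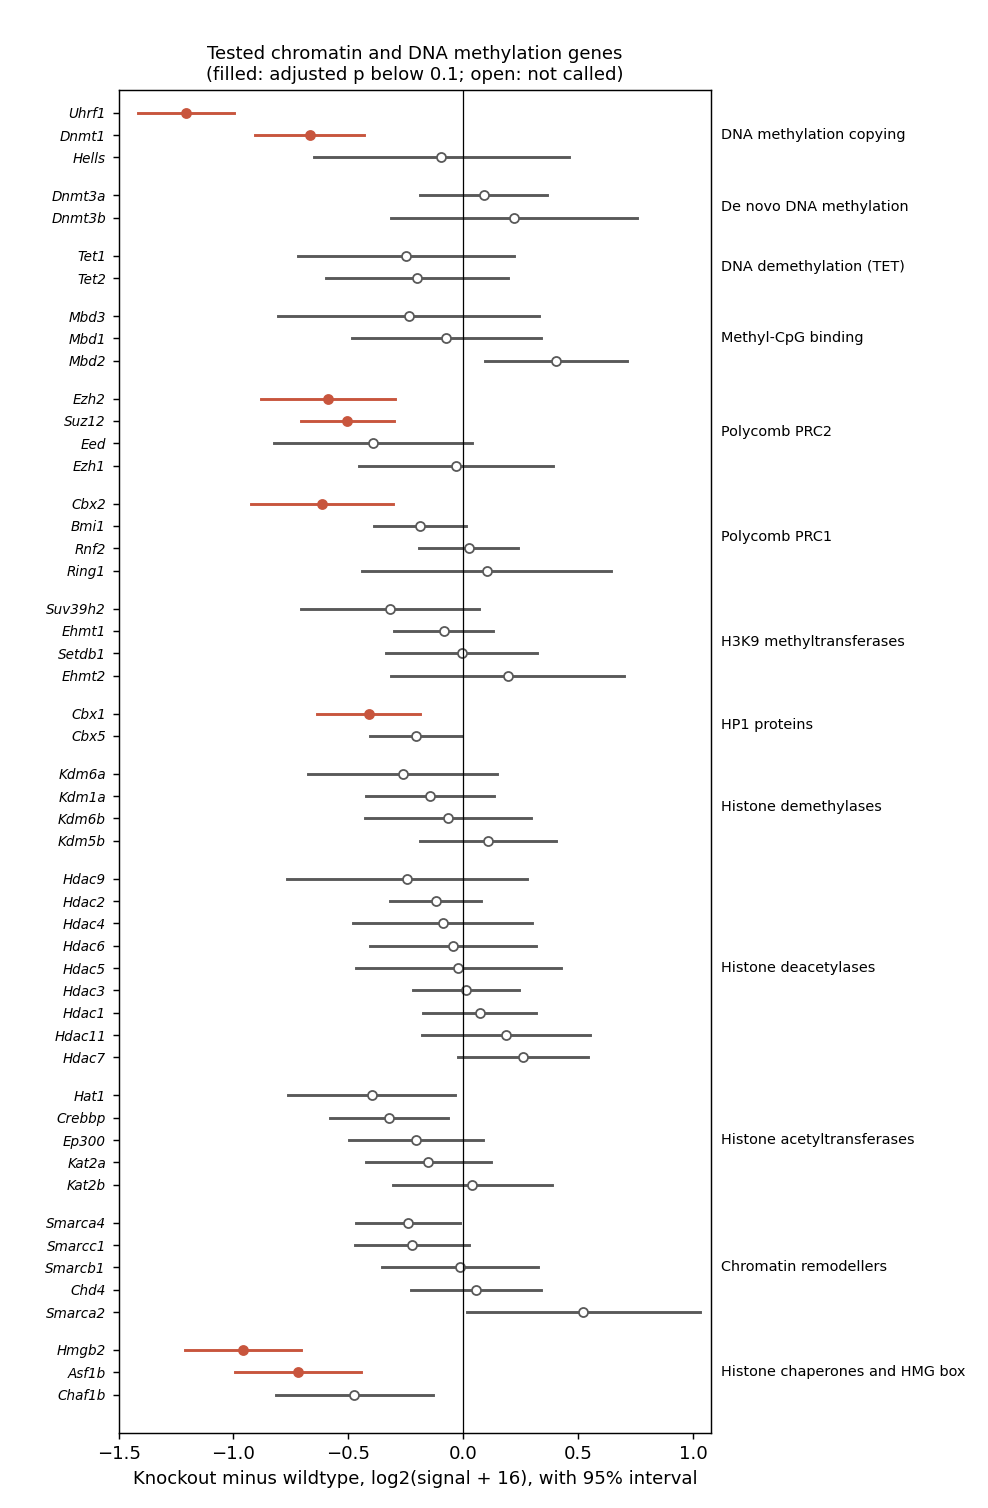
Difference between knockout and wildtype for each of the 50 tested members on the log2(signal + 16) scale, grouped by class, with points for the estimate and bars for its 95% interval from limma (n = 3 pools per genotype). The 8 filled points, all left of 0, are the called members, led by Uhrf1 at -1.21, while the 9 deacetylases lie between -0.25 and 0.26.

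Since Uhrf1, Hmgb2, Dnmt1 and Asf1b, the 4 called members with the smallest p, are genes whose transcription is commonly described as peaking in dividing cells, the bases before their RefSeq starts (build GRCm38.p6) are shown for every start whose window held a match to one of 3 motif sets. The windows searched run from 250 bases before to 50 after a start, on both strands. The E2F set was TTTGGCGC, TTTCGCGC, TTTGGCGG and TTTCCCGC, the CCAAT set CCAAT, and the cell cycle homology set TTTGAA and TTCGAA. No motif contains another, but matches can overlap, as in CCAATTGG, which counts on both strands. Capitals mark whole matches on either strand, and only the 250 bases before each start are printed, 5′ to 3′ along the gene's strand.
Uhrf1, chr17:56303087-56303336, plus strand: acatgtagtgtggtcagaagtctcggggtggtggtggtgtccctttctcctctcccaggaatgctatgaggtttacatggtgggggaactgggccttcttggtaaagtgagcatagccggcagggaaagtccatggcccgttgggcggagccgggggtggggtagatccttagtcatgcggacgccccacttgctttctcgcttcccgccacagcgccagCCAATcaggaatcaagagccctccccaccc
Uhrf1, chr17:56304063-56304312, plus strand: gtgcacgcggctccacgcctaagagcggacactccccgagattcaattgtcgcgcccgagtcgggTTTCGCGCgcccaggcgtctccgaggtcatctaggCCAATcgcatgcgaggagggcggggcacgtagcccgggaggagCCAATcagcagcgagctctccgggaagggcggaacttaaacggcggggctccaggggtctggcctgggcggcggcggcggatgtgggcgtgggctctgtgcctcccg
Hmgb2, chr8:57511593-57511842, plus strand: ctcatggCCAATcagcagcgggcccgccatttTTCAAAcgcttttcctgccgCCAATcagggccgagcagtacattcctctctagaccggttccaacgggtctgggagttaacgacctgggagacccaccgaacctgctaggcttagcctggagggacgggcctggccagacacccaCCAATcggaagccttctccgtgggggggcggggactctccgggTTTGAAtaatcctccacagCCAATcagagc
Dnmt1, chr9:20952624-20952873, minus strand: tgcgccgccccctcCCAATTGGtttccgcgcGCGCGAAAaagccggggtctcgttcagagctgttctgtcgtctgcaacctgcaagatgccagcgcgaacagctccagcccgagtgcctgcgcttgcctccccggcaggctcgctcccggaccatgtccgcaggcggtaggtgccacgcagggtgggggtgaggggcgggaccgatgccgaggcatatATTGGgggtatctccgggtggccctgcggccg
Dnmt1, chr9:20959889-20960138, minus strand: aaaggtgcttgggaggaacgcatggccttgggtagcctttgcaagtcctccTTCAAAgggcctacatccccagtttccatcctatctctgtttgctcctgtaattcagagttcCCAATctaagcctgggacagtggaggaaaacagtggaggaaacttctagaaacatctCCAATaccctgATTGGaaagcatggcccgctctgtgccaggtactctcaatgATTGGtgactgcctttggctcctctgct
Asf1b, chr8:83955444-83955693, plus strand: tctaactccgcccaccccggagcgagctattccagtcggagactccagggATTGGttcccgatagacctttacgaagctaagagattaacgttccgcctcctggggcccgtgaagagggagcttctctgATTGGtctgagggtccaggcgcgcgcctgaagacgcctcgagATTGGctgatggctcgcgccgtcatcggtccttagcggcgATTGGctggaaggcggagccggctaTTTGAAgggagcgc

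Positions give the first base of a match, counted along the gene's strand, with the start as 1 and the base before it as -1. Asf1b held 4 CCAAT matches, all on the opposite strand, and a TTTGAA match at -14. Hmgb2 held 4 CCAAT matches on the gene's strand and TTTGAA matches at -218 and -30. Of the 2 Uhrf1 starts, the first had 3 CCAAT matches, of which those at -2 and 2 overlap and are not in capitals because they run past the printed stretch, and the second had TTTCGCGC at -185 with 2 CCAAT matches. Dnmt1 has 3 starts in the table. One held TTTCGCGC at -219, 3 CCAAT matches and a TTTGGCGC at 34, another held a TTTGAA match at -199 with 5 CCAAT matches, and the third held none. Of the other called members, Ezh2 held TTTGGCGC at 4 with 3 CCAAT matches, Suz12 held TTTCCCGC, TTTGAA and CCAAT, Cbx1 held none, and Cbx2 had no window in the table. Over all 32851 windows in the table, 2.37% held an E2F match, 37.4% a CCAAT match and 19.2% a cell cycle homology match. Of 8888 tested genes with a window, 5.07%, 42.7% and 16.1% held them. By gene, 4 of 7 called members held an E2F match, 6 a CCAAT match and 4 a cell cycle homology match, and 3, 12 and 6 of 37 tested members that were not called did. These letters describe the windows only and were given no test.

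The machinery that copies DNA methylation showed the largest fall of any member. Uhrf1, which recognises half-methylated DNA behind the replication fork and recruits Dnmt1, read 9.0, 9.01 and 9.05 in wildtype pools 1 to 3 and 7.83, 7.77 and 7.83 in knockout pools 1 to 3. The pools of each genotype were close together and the groups did not overlap. Uhrf1 fell 2.31-fold (log2 difference -1.21, SE 0.09, limma adjusted p = 0.00108), and its second probe set differed by -0.90. The difference was -1.25 in the brighter and -1.17 in the dimmer set.

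Dnmt1, the maintenance methyltransferase, read 9.03, 9.05 and 8.87 in wildtype and 8.40, 8.20 and 8.35 in knockout pools. Its groups did not overlap, and it fell 1.59-fold (-0.67, SE 0.10, adjusted p = 0.0143). The difference was -0.575 in the brighter and -0.69 in the dimmer set. All 3 bright probe sets of Dnmt1 were lower, by 0.67 to 1.06 on the log2 scale. Its call ended with averaged pools (adjusted p = 0.299), with arrays centred on their medians (0.134) and under the submitters' error model (0.222). Hells, a helicase of the Snf2 family needed for DNA methylation, was not called on its brightest probe set (-0.10, 95% interval -0.65 to 0.46), which read 7.14, 6.73 and 7.67 in wildtype and 7.21, 7.19 and 6.85 in knockout. Its second bright probe set read 7.08, 7.22 and 6.37 in wildtype and 6.44, 6.11 and 6.16 in knockout, a difference of -0.65. The knockout mean was thus lower on both bright probe sets of Hells, but by unlike amounts and with overlapping pools. Wildtype pool 3 was the highest of all pools on the brightest probe set and the lowest wildtype pool on the second. The probe sets therefore do not settle whether Hells fell.

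The de novo methyltransferases Dnmt3a and Dnmt3b, which set new methyl marks, were not called. Dnmt3a differed by 0.09 (95% interval -0.19 to 0.37), an interval that does not reach that of Dnmt1 (-0.91 to -0.43); the difference between the 2 genes was not tested. The 5 bright probe sets of Dnmt3a lay between -0.06 and 0.28. Dnmt3b read 6.23, 6.20 and 7.05 in wildtype and 6.69, 6.70 and 6.76 in knockout. Wildtype pool 3 alone lay above the knockout pools, and the others below. The difference of 0.22 (SE 0.23, adjusted p = 0.842) became 0.50 without wildtype pool 3 (adjusted p = 0.0422), and was -0.35 in the brighter and 0.54 in the dimmer set. Its second probe set pointed the other way (-0.16).

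Neither the TET enzymes, which oxidise methylated cytosine, nor the methyl-CpG binding proteins gave a call. Tet1 read 6.64, 7.03 and 6.68 in wildtype and 6.17, 6.84 and 6.60 in knockout, with overlapping groups (-0.25, SE 0.20, adjusted p = 0.760), and Tet2 differed by -0.20. Mbd2, a reader that recruits the NuRD deacetylase complex, read 7.93, 8.01 and 7.88 in wildtype and 8.38, 8.55 and 8.11 in knockout. All knockout pools of Mbd2 lay above all wildtype pools, but the difference of 0.40 did not pass (SE 0.13, 95% interval 0.10 to 0.71, adjusted p = 0.209), with 0.59 and 0.13 within the sets. Mbd3, the NuRD subunit that binds methylated DNA poorly, read 8.26, 8.25 and 7.34 in wildtype and 7.55 to 7.87 in knockout, with 0.29 and -0.38 within the sets, and Mbd1 differed by -0.07.

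**Figure D2:**
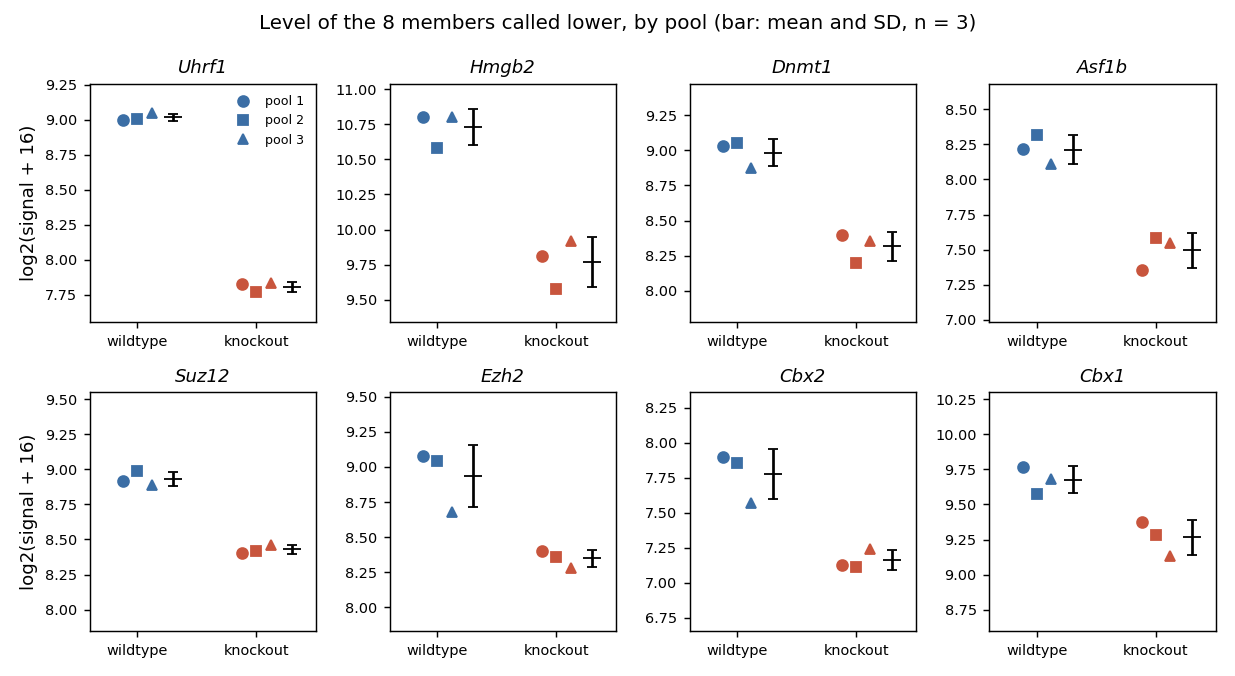
Level of each of the 8 called members in every pool, as log2(signal + 16), with circles, squares and triangles for pools 1, 2 and 3 and a bar for the mean and SD (n = 3). No panel shows an overlap between genotypes, and the gap is widest for Uhrf1 (9.02 ± 0.03 against 7.81 ± 0.04); each vertical axis spans the same range, placed at that gene's own level.

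Of the Polycomb genes, 2 of 4 tested PRC2 members (Ezh2 and Suz12) and 1 of 4 PRC1 members (Cbx2) fell, and the others were not called. Ezh2, the methyltransferase of PRC2 known from proliferating cells, read 9.08, 9.04 and 8.68 in wildtype and 8.40, 8.36 and 8.28 in knockout. Wildtype pool 3 lay nearest to the knockout pools, and the groups did not overlap. Ezh2 fell 1.5-fold (-0.59, SE 0.13, adjusted p = 0.0542), with -0.30 in the brighter and -0.78 in the dimmer set. Without wildtype pool 3 the difference was -0.71 (adjusted p = 0.00255). Ezh1, its paralogue known from postmitotic cells, differed by -0.03 (95% interval -0.46 to 0.39), with overlapping pools.

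Suz12, which PRC2 needs for stability, read 8.92, 8.99 and 8.89 in wildtype and 8.41, 8.42 and 8.46 in knockout. It fell 1.42-fold (-0.50, SE 0.09, adjusted p = 0.0227), with -0.48 and -0.49 within the sets. Its 5 bright probe sets ranged from -0.50 to -0.01. Eed, the subunit that binds the methyl mark, read 8.20, 8.13 and 7.52 in wildtype and 7.65, 7.47 and 7.56 in knockout. Here wildtype pool 3 lay among the knockout pools, the difference of -0.39 was not called (adjusted p = 0.437), and the values within the sets were 0.03 and -0.60.

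In PRC1, Cbx2, which reads the PRC2 mark, read 7.90, 7.86 and 7.57 in wildtype and 7.13, 7.12 and 7.24 in knockout. Cbx2 fell 1.53-fold on this probe set (-0.61, SE 0.13, adjusted p = 0.0551), with -0.45 and -0.64 within the sets. Its other, dimmer probe set was 0.27 higher, and the mean over both differed by -0.17 (adjusted p = 0.733). Bmi1, a partner of the ubiquitin ligase, read 8.82, 8.76 and 8.84 in wildtype and 8.65, 8.61 and 8.59 in knockout. All its knockout pools lay below all wildtype pools, yet the difference of -0.19 was not called (adjusted p = 0.403). The ligases Rnf2 and Ring1 differed by 0.02 and 0.10. The calls of Ezh2, Suz12 and Cbx2 all ended with averaged pools, with arrays centred on their medians and when any 1 of wildtype pools 1 and 2 and knockout pools 1 and 2 was left out, settings in which their differences lay between -0.61 and -0.41.

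Among genes of lysine methylation at the heterochromatin mark of histone H3, only the HP1 gene Cbx1 was called. HP1 proteins bind that mark and compact silent chromatin. Cbx1, which encodes HP1 beta, read 9.77, 9.58 and 9.68 in wildtype and 9.38, 9.29 and 9.13 in knockout, without overlap. It fell 1.33-fold (-0.41, SE 0.10, adjusted p = 0.0746), with -0.35 and -0.54 within the sets, and lost its call in 14 of 22 alternatives, among them each pool left out except wildtype pool 3. Cbx5, which encodes HP1 alpha, was lower in every knockout pool without passing (9.72, 9.60 and 9.71 against 9.58, 9.42 and 9.41, adjusted p = 0.352). Cbx3 was too dim on its only single-gene probe set, at 5.52 in wildtype and 5.28 in knockout.

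The methyltransferases that write this mark were not called. Suv39h2 read 6.60, 6.80 and 6.64 in wildtype and 6.07, 6.48 and 6.54 in knockout, a difference of -0.32 (SE 0.17, 95% interval -0.70 to 0.07, adjusted p = 0.509). Ehmt1 and Setdb1 differed by -0.09 and -0.01. Ehmt2 differed by 0.19, with 0.80 and -0.24 within the sets, since wildtype pool 3 read 7.94 and the other wildtype pools 8.80 and 8.65.

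The histone demethylases gave no call. Kdm6a, which removes the PRC2 mark, had the smallest p of its class and read 7.86, 7.82 and 7.25 in wildtype and 7.39, 7.30 and 7.45 in knockout. Wildtype pool 3 was the lowest of all 6, and the difference of -0.26 (SE 0.18, adjusted p = 0.666) became -0.46 without that pool (adjusted p = 0.0280), with 0.10 and -0.39 within the sets. Kdm1a, Kdm6b and Kdm5b differed by -0.14, -0.07 and 0.11.

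The 9 tested histone deacetylases, which remove acetyl groups and close chromatin, differed by -0.25 to 0.26 with a median of -0.02. Of the class I enzymes, Hdac1 differed by 0.07 (95% interval -0.17 to 0.32), Hdac2 by -0.12 (-0.32 to 0.08) and Hdac3 by 0.01 (-0.22 to 0.24). These intervals bound the differences and do not show that levels were equal. Hdac7, a class IIa enzyme, had the smallest p at 6.85, 6.97 and 6.97 in wildtype and 7.25, 7.19 and 7.12 in knockout. All its knockout pools were higher, but the difference of 0.26 was not called (SE 0.12, adjusted p = 0.427) and its second probe set differed by -0.04. Of the other deacetylases, Hdac9 differed by -0.25 and Hdac11 by 0.19, and Hdac4, Hdac5 and Hdac6 lay between -0.09 and -0.02.

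The histone acetyltransferases gave no call, with 4 of 5 differences below 0 and a median of -0.20. Crebbp, a coactivator with acetyltransferase activity, read 8.39, 8.59 and 8.61 in wildtype and 8.12, 8.19 and 8.32 in knockout. Its groups did not overlap, and the difference was -0.32 (SE 0.11, 95% interval -0.58 to -0.07, adjusted p = 0.229). Hat1, which acetylates newly made histone H4 before deposition, read 8.16, 8.04 and 7.63 against 7.61, 7.43 and 7.59 (-0.40, adjusted p = 0.311), and without wildtype pool 3 it was among the called members. Ep300, the paralogue of Crebbp, differed by -0.20, Kat2a by -0.15 and Kat2b by 0.04.

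In the remodelling complexes the ATPases of SWI/SNF pointed in opposite directions without passing. Smarca4, also called BRG1, read 9.56, 9.69 and 9.54 in wildtype and 9.20, 9.40 and 9.47 in knockout (-0.24, SE 0.10, adjusted p = 0.326), without overlap. Smarca2, also called BRM, read 6.69, 6.74 and 5.96 in wildtype and 7.03, 6.86 and 7.06 in knockout. It had the largest positive difference of the members, 0.52 (95% interval 0.02 to 1.03, adjusted p = 0.352), with 0.99 and 0.35 within the sets, where wildtype pool 3 is the low value, and 0.11 on its second probe set. The 95% intervals of both genes leave out 0 before adjustment and do not overlap, and the difference between the genes was not tested. The core subunit Smarcc1 was lower in every knockout pool (-0.22, adjusted p = 0.451), and Smarcb1 and the NuRD ATPase Chd4 differed by -0.01 and 0.06. On dimmer probe sets above the filter, Smarcb1 differed by -0.244 and Chd4 by -0.217 and -0.255.

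Of the 3 tested genes for histone chaperones and HMG box proteins, Hmgb2 and Asf1b fell and all 3 had every knockout pool below every wildtype pool. Hmgb2, an abundant DNA-bending protein of dividing cells, read 10.80, 10.58 and 10.81 in wildtype and 9.81, 9.58 and 9.92 in knockout. The groups did not overlap, and Hmgb2 fell 1.95-fold (-0.96, SE 0.11, adjusted p = 0.00474). Its 3 bright probe sets ranged from -1.06 to -0.96, and the values within the sets were -1.11 and -0.77. Asf1b, the histone H3-H4 chaperone of replicating cells, read 8.21, 8.31 and 8.11 against 7.35, 7.58 and 7.55 and fell 1.65-fold (-0.72, SE 0.12, adjusted p = 0.0193), with -0.65 and -0.71 within the sets. Chaf1b, a subunit of the CAF-1 chaperone, read 7.67, 7.96 and 7.85 against 7.15, 7.35 and 7.56 and did not pass (-0.47, SE 0.15, 95% interval -0.82 to -0.13, adjusted p = 0.179). Asf1b lost its call without knockout pool 1 (adjusted p = 0.110), with averaged pools (0.373), with median centring (0.107) and under the submitters' error model (0.192).

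Other chromatin genes, taken from a list of 168 related names, showed falls in some classes. Of 145 tested, 12 fell (8.28%) and 0 rose, against 2.63% and 2.03% of all tested genes, with a median of -0.07. Histone variants made up 4 of the 12, out of 6 tested. H2ax, the variant phosphorylated at DNA breaks, read 10.74, 10.64 and 10.49 in wildtype and 9.32, 9.37 and 9.54 in knockout (-1.21, SE 0.10, adjusted p = 0.00108), a fall as large as that of Uhrf1. H2az2 fell by 0.90, H2az1 by 0.69 and Cenpa, the histone of centromeres, by 1.17. The chaperones Nasp, Anp32b and Anp32e and the HMG box gene Hmgb3 fell by 0.44 to 0.57, out of 18 tested in that class. The Polycomb genes Phc1 and Phc2, which encode polyhomeotic subunits of PRC1, fell by 0.53 and 0.36 out of 11 related PRC1 genes. Nsd2, a methyltransferase for lysine on histone H3, fell 1.57-fold (adjusted p = 0.0221), out of 21 tested among other histone methyltransferases. Actl6a, the BAF53A subunit found in progenitor SWI/SNF complexes, fell 1.48-fold (adjusted p = 0.0176), out of 34 related remodelling genes. No gene passed among 7 further PRC2 genes, 12 demethylases, 13 genes of deacetylase complexes and sirtuins or 8 of acetylation. The 3 related genes tested with the class that copies DNA methylation gave no call either, with a median of -0.11. Nor did 5 listed with methyl-CpG binding and 7 listed with the heterochromatin mark of histone H3. Leaving out wildtype pool 3 gave 27 falls and 5 rises among these genes, where 9.66% of all tested genes were called lower and 7.9% higher. Averaging pools 1 and 2 gave 2 and 0, where 0.238% and 0.156% of all tested genes were called.

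**Figure D3:**
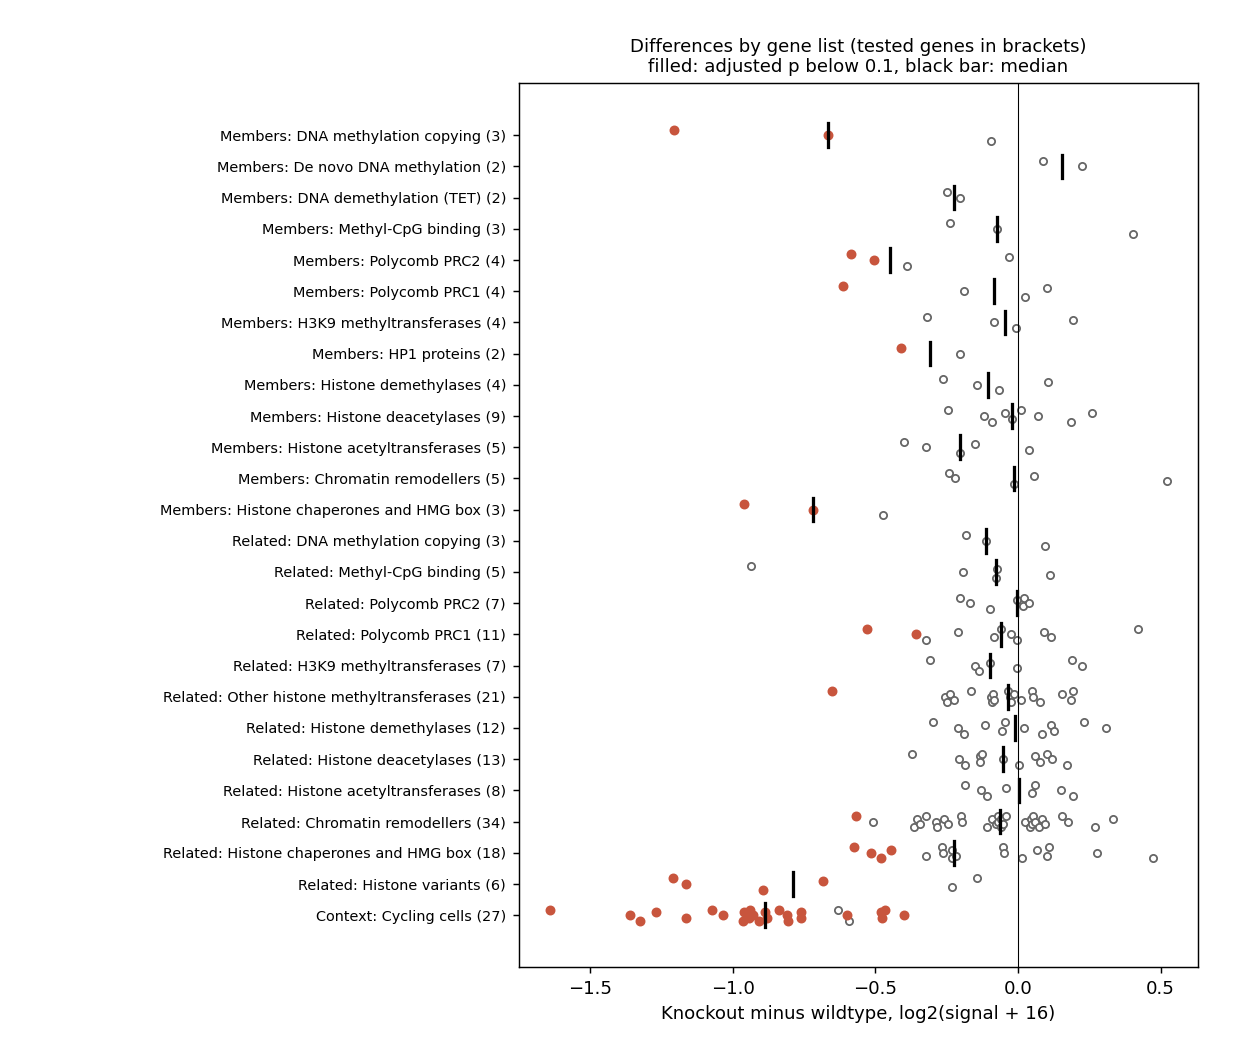
Difference between knockout and wildtype (log2(signal + 16) scale) of each tested gene by list, with filled points for called genes and a black bar for the median. Medians are lowest for the members that copy DNA methylation (-0.67), the member chaperones with HMG box (-0.72), the histone variants (-0.79) and the cycling cell genes (-0.89).

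Lens genes also differed by genotype, with 12 of 16 tested higher and 0 lower. They held 0.280%, 0.288% and 0.105% of the signal in wildtype pools 1 to 3 and 0.822%, 0.795% and 2.05% in knockout pools 1 to 3. Their part in the members' differences was not tested. None of the 3 red blood cell genes with a probe set was bright enough to be tested, and their summed share was 0.00198% to 0.00291% in every pool. Vessel, microglia and astrocyte lists had no called gene among 4, 3 and 3 tested, and of 6 tested pigment epithelium genes 1 was lower.

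The members varied more among wildtype than among knockout pools. The median SD over 50 members was 0.18 in wildtype and 0.11 in knockout, and over all tested genes it was 0.20 and 0.13. Wildtype pool 3 was lower than the mean of the other wildtype pools by more than 0.3 for 19 members and higher for 5, whereas knockout pool 3 was lower for 2 and higher for 5. Of all 10916 tested genes, 2990 were lower and 2552 higher in wildtype pool 3, and 1366 and 914 in knockout pool 3. Among members, the largest gaps of wildtype pool 3 were those of Mbd3 (-0.91), Ring1 (-0.85), Dnmt3b (0.83), Ehmt2 (-0.79), Smarca2 (-0.75) and Hells (0.74). Of the 8 called members, Ezh2 (-0.38) and Cbx2 (-0.31) were beyond 0.3. The gaps of the other called members were -0.17 for Dnmt1, -0.15 for Asf1b, -0.06 for Suz12, 0.01 for Cbx1, 0.04 for Uhrf1 and 0.11 for Hmgb2.

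**Figure D4:**
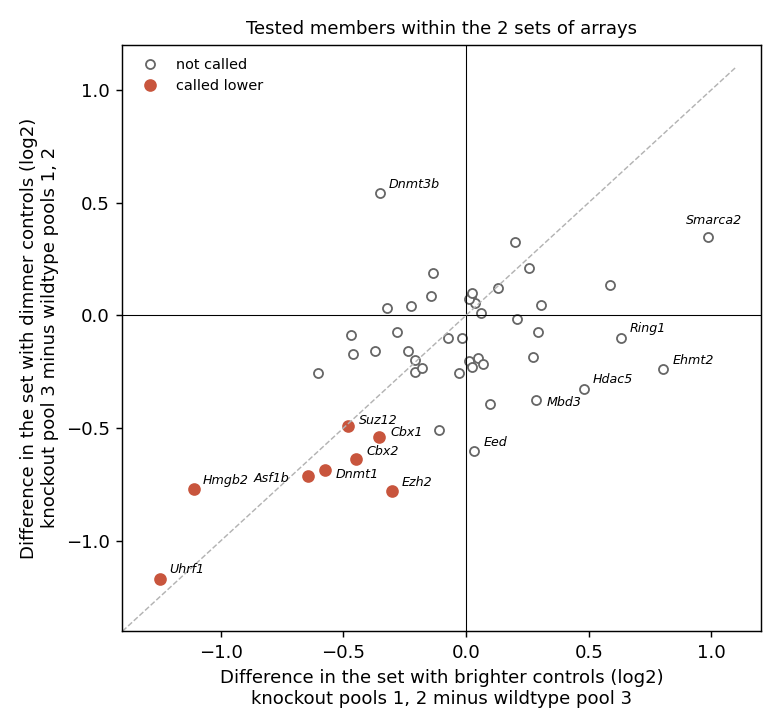
Difference of each tested member within the set of arrays with brighter controls (horizontal axis) and with dimmer controls (vertical axis), both on the log2(signal + 16) scale, with filled points for called members and a dashed line of equality. All 8 called members lie below 0 in both sets, as they must, since every knockout pool of each lay below every wildtype pool. Of the 50 members, 18 have opposite signs in the sets, among them Ehmt2 (0.80 and -0.24) and Dnmt3b (-0.35 and 0.54).

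Probe sets of a gene mostly pointed the same way. Of 32 tested members with more than 1 probe set above the filter, all probe sets had the same sign in 24. The exceptions among called members were those of Cbx2. The called members had mean levels between percentiles 69.7 and 98.2 of all named genes, so no dim member was called, and the differences of dim genes are understated on this scale.

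**Figure D5:**
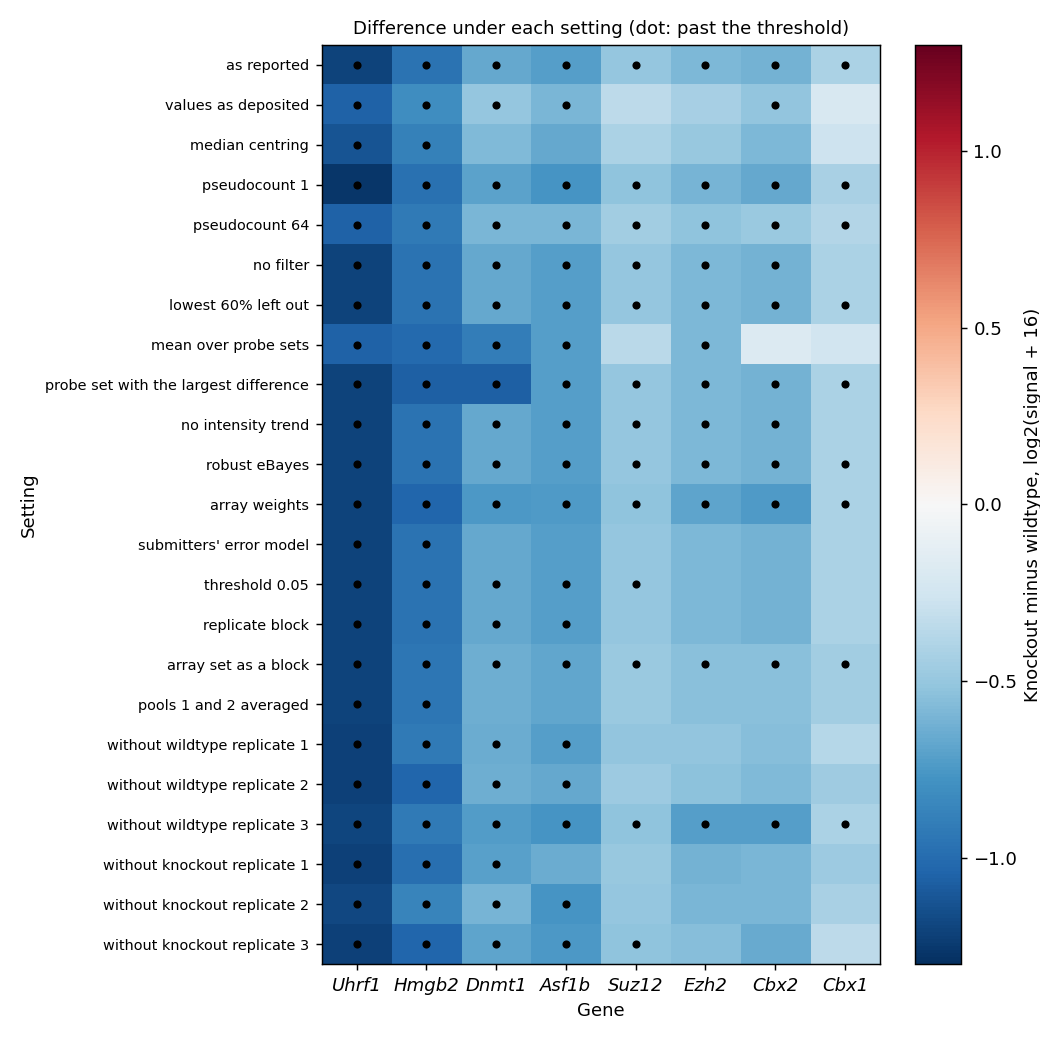
Difference of the 8 called members (columns) under each of 22 alternative settings and in the values reported above (rows), coloured on the log2(signal + 16) scale, with a dot where the gene passed the threshold. Every cell is below 0, which in many settings follows from pools that do not overlap or from an unchanged difference. Dots fill the columns of Uhrf1 and Hmgb2, whereas Cbx1 has lost its dot in 14 alternatives.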

How the data were processed

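Per the labels' protocols, total RNA of pooled newborn retinas was column purified, labelled with biotin after 1 amplification round and hybridised to Affymetrix arrays. The deposited table holds 1 linear intensity per probe set and array; how the authors summarised and scaled these intensity values is not given in the sources used here. Per the labels, the authors' own test used a maximum of averaged and Bayesian error variances with a 200-probe-set window, and kept each gene's probe set of largest difference.

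Of 45101 probe sets, 64 controls were left out, 34945 with 1 gene symbol were used, 932 had several and 9160 none. Symbols were updated through Entrez identifiers (34741 probe sets) with RefSeq names of GRCm38.p6; 53 of 55 members and, in the promoter table, 44 of the 50 tested members matched. Values were quantile normalised, floored at 1 and taken to log2(value + 16), which understates changes of dim genes. The lowest 40% of genes (7277) were not tested, and 10916 entered a limma model (version 3.58.1, R 4.3.3; lmFit, then eBayes with trend) of genotype alone. Two-sided p-values were adjusted over all tested genes by Benjamini-Hochberg and called under 0.1. The fit was tested on simulated data. Figures used matplotlib 3.10.9. The number of arrays limits the precision, and no detection calls were used.

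The members and lists were chosen with earlier results of these data known. Given in full were every called member and, in classes without a call, the member with the smallest p; of the related and context lists, called genes by smallest p. Hells, Dnmt3a, Ezh1, Eed, Bmi1, Cbx5, Ehmt2, Hat1, Smarca2, Chaf1b, Pax6, Rax and, among related genes, Phc1, Nasp, Hmgb3, Anp32e, H2az1, H2ax and Cenpa are exceptions to this rule, named once their values were known. Arrays were ranked on the mean of 5 BioB and BioC control probe sets to form the sets. Alternatives (22) covered scaling, pseudocount, filter, probe set, variance model, threshold, blocks, averaged pools and each array left out.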

Additional observations from a re-analysis of the deposited data

How the results depend on the processing

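All 8 called members stayed below 0 in each of 22 alternatives, but in many of these the sign could not change. Some settings alter only the filter, the variance or the threshold. Leaving out or averaging pools keeps the sign when the pools of the genotypes do not overlap. Uhrf1 and Hmgb2 kept their calls in all 22 (largest adjusted p 0.0657 and 0.0728, with averaged pools), while the call was lost by Dnmt1 in 3, Asf1b in 4, Suz12 in 10, Ezh2 and Cbx2 in 11 each and Cbx1 in 14. Members called lower numbered 8 in the report (2.63% of all tested genes), 5 with values as deposited (1.61%), 2 with median centring (1.24%), 5 with the mean over probe sets (2.19%), 24 with array weights (16%), 2 under the submitters' error model (1.1%), 5 at a threshold of 0.05 (1.79%) and 2 with averaged pools (0.238%). Leaving out 1 pool gave 3 (without knockout pool 1, 0.907% of all genes) to 15 (without wildtype pool 3, 9.66%). Members called higher numbered 0, and 3 with array weights, 1 with the array set as a block, where the set was found in these same data, and 0 to 1 with 1 pool left out. With the array set as a block, 5.47% of all tested genes were called higher and 3.97% lower. Without wildtype pool 3, the setting with 1 member higher, 7.9% of all tested genes were called higher. Array weights gave wildtype pool 3 a weight of 0.15 and called 16% and 17% of all genes lower and higher. The median difference of members, -0.13, was 0.006 with values as deposited, where the median of all genes was 0.13, and -0.24 with the probe set of the largest difference. With the replicate number as a block (replicate block), 4 members and 1.31% of all genes (143) were lower; numbers pair no tissue in the labels, and same-numbered pools' deviations correlated at 0.17, -0.35 and -0.48. Related genes called lower ranged from 2 with averaged pools to 47 with array weights. Apart from the construction of each alternative (fewer samples, other values), the cause was not tested.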
